A study of Rattus norvegicus with 18 samples.

Results

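Zinc finger transcription factor genes were examined for N6-methyladenosine (m6A) peaks in H9c2 cells, a myoblast line from embryonic rat heart that the labels list as cardiomyocytes. The members were the genes in the peak lists with a name beginning with Zfp, Znf, Zbtb, Zscan or Zkscan. By this rule 157 of 4846 listed genes were members, and they held 813 of 32961 peaks. Peaks sharing 1 base or more across lists were joined into sites, of which 228 of 9022 belonged to members. There were 120 Zfp, 27 Zbtb, 5 Zscan, 4 Znf genes and 1 Zkscan gene. RNA was enriched with an m6A antibody and sequenced beside its input (MeRIP-seq), so that a peak marks a stretch of RNA over-represented in the antibody fraction. The SYD group received 2 mg/mL of Shen-Yuan-Dan, a herbal capsule, with 50 µM phenylephrine for 24 h, the Model group 50 µM phenylephrine alone for 24 h, and the Control group no intervention. The SYD concentration is that of the sample labels, while the design text of the series gives 1 mg/mL. Each group had 3 libraries of wild-type cells from the same line, and nothing in the sources used here says whether these came from separate cultures, so the spread between them may be technical.

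A zinc finger is a short protein fold held by a zinc ion. In the C2H2 type, tandem fingers read DNA bases, and many mammalian genes of this kind encode the whole finger array in a long last exon. A KRAB domain at the other end of many Zfp proteins recruits the corepressor KAP1 (Trim28), which brings in histone methylation. Zbtb proteins carry a BTB domain that pairs the proteins and binds corepressors or cullin ubiquitin ligases, and Zscan and Zkscan proteins carry a SCAN dimerisation domain. The methyltransferase METTL3 places m6A on mRNA, most often in long exons and near stop codons, and the mark is known to shorten the life of many transcripts. Messages of transcription factors are often short-lived.

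The name rule gathered proteins of more than 1 kind. Among 154 members with a listed molecular function, 61 had a transcription factor term and 77 a DNA binding term. Of the members, 151 were matched to a current rat gene in RefSeq and 153 had a zinc finger in their description. RefSeq (GRCr8) was used for names and for the number of protein-coding genes, whereas the peaks were listed on rn6. The rule also brought in 11 genes on a list of zinc finger proteins that are not sequence-specific C2H2 factors, among them the mRNA-decay factors Zfp36 and Zfp36l1. Another 6 members have other symbols today, for example Zfp498 (Zscan25) and Zfp161 (Zbtb14). Chromosome 1 carried 35 members, 22.3% of them against 13.1% of all genes with a peak. Members were listed more often than other genes, since 152 of the 483 protein-coding genes with these prefixes in RefSeq (31.5%) had a peak in any library, against 4419 of 22665 others (19.5%). The share was not corrected for expression or transcript length. Near-identical copies are common in this family, and how the alignment shared reads among them is not given in the sources used here.

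The 9 lists held 2508 to 2786 peaks in SYD, 2883 to 4476 in Model and 3629 to 5556 in Control libraries. The lists hold no read totals, so the depth behind a peak is unknown. The score of a peak is 10 times the negative log10 of its p, from 20 upwards, and the fold enrichment is the ratio of the antibody fraction to input within a replicate. A false discovery rate of 100% was listed for every peak, members included. Markers were checked by their peaks, which need both RNA and m6A: 3 of 12 cardiomyocyte markers had one (Tnnt2 in 9 lists, Nkx2-5 in 8 and Gata4 in 1), as did 1 of 9 myoblast (Myh4 in 9), 3 of 7 fibroblast, 0 of 4 endothelial and 0 of 4 macrophage markers. Input levels were not used here, so in these bulk samples fewer methylated copies and less RNA per cell cannot be told apart from the peak lists alone.

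Peaks on zinc finger genes were long. Their median length was 813, 981 and 858 bp in the SYD libraries, 876, 812 and 856 bp in Model and 1033, 736 and 872 bp in Control. Peaks of all other genes had medians of 276 to 313 bp in SYD, 256.5 to 278 bp in Model and 247 to 273 bp in Control libraries, so that the members were higher in all 9 libraries. Over all libraries 45.4% of member peaks and 12.4% of other peaks spanned 1000 bp or more. Genes of other C2H2 families on a list of 118 (such as Klf, Sp, Egr and Gli) lay in between, with a median of 630 bp and 27.5% of 313 peaks at 1000 bp or more. The longest member peak covered 5340 bp of Zfp646. Other long ones lay on Zbtb39 (3514 bp), Zfp521 (3356 bp), a co-regulator of blood and bone development in mice, Zfp526 (3273 bp) and Zfp629 (3136 bp).

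**Figure D1:**
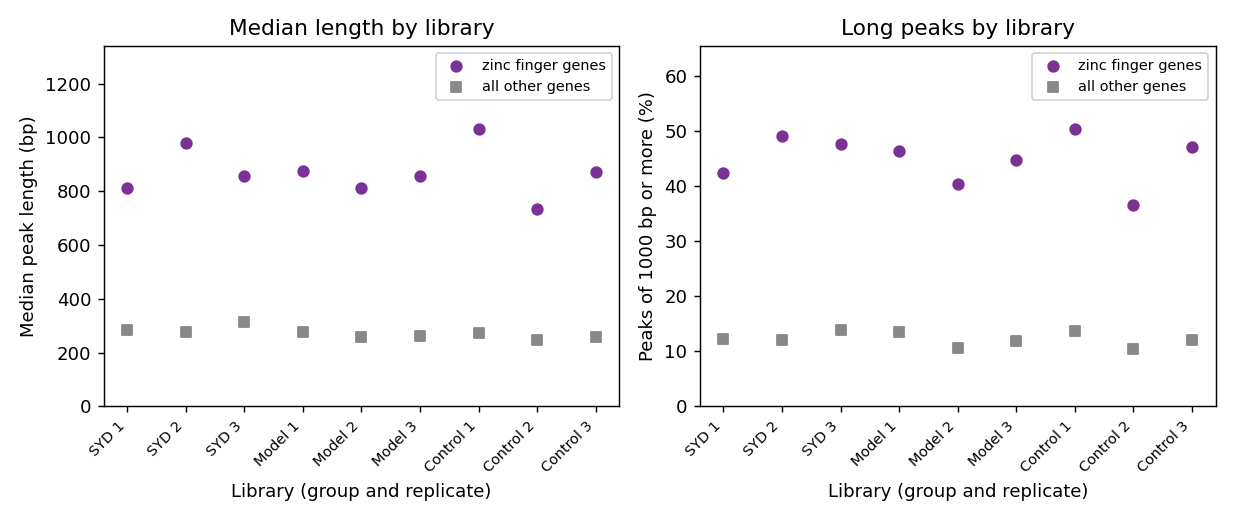
Median peak length in bp (left) and percent of peaks of 1000 bp or more (right) in each of the 9 libraries, for zinc finger genes (circles) and all other genes (squares). The circles lie at 736 to 1033 bp and the squares at 247 to 313 bp.

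The listed bounds often did not depend on the library. Of 162 member sites held by 2 or more lists, 84 (51.9%) had the same start and end in every list that held them, and of 5855 other sites 4569 (78.0%) did. Zbtb47 was listed at chr8:130401470-130402972 (rn6), 1503 bp in all 9 lists, and the Zfp91 peak at chr1:229638811-229639187 was 377 bp in all 9. The listed length of such a site is the same whatever its enrichment, so it is no measure of the width of the methylated stretch. Bounds of the Zfp703 site at chr16:69238631-69240789 differed from list to list. Which bounds are those of exons was not tested, as no rn6 annotation was used here.

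Fewer zinc finger genes had a peak in SYD than in Model libraries. The SYD libraries listed 52, 44 and 53 of them, the Model libraries 98, 56 and 87, and the Control libraries 117, 69 and 82. All SYD values lay below all Model and Control values, whereas Model and Control overlapped. The means were 49.7 ± 4.93 in SYD, 80.3 ± 21.8 in Model and 89.3 ± 24.8 in Control (SD, n = 3 each). All other genes with a peak also numbered fewer in SYD, at 1846 ± 108 against 2481 ± 448 in Model and 2809 ± 528 in Control. The ratio of SYD to Model means was 0.618 for zinc finger genes and 0.744 for other genes, and that of Model to Control means was 0.899 and 0.883. Zfp genes had a SYD to Model ratio of 0.587 and Zbtb genes 0.776, and these ratios have no test.

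Set against the length of each list, the group was less apart. Zinc finger genes made up 2.92%, 2.31% and 2.65% of genes with a peak in SYD, 3.33%, 2.75% and 3.22% in Model and 3.34%, 2.84% and 2.97% in Control libraries, where SYD overlapped both other groups. When every list was limited to its 2508 highest-scoring peaks, the number of zinc finger genes was 52, 42 and 48 in SYD, 56, 48 and 44 in Model and 56, 40 and 45 in Control libraries. The lower number in SYD was therefore not seen at equal list length. Limiting the lists to scores of at least 50 gave 15, 19 and 24 genes in SYD, 52, 18 and 38 in Model and 71, 32 and 41 in Control libraries, where SYD overlapped Model alone.

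**Figure D2:**
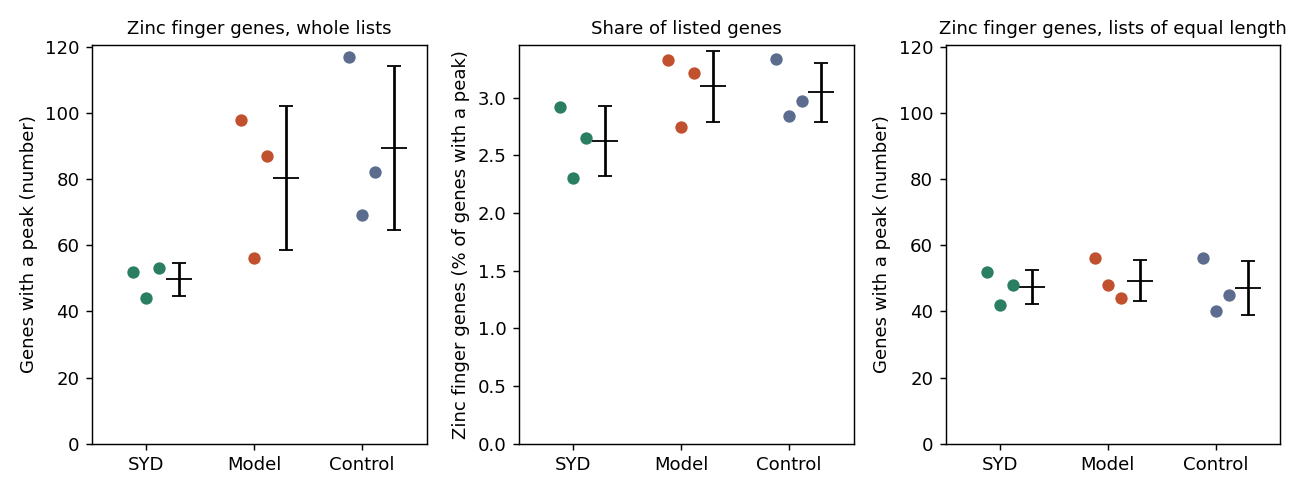
Zinc finger genes with a peak in each library (left), as a percent of all genes with a peak (middle), and with each list limited to its 2508 highest-scoring peaks (right); points are libraries, and the bar beside them gives the mean and SD of 3. SYD lies lowest on the left at 44 to 53 genes, and the groups overlap on the right.

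Only a few zinc finger genes were listed throughout. In all 9 libraries 17 members (10.8%) had a peak, against 18.1% of other genes, while 28 members (17.8%) and 23.0% of other genes were in 1 list. Those in all 9 were Zbtb7a, Zbtb10, Zbtb43, Zbtb47, Zfp91, Zfp219, Zfp362, Zfp428, Zfp498, Zfp618, Zfp622, Zfp697, Zfp703, Zfp704, Zfp771, Zfp777 and Zfpm1. By site, 17 of 228 member sites (7.46%) and 10.2% of other sites were in all 9 lists, on 14 genes. Zfp362, Zfp618 and Zfp622, a ribosome assembly factor, were in every list through different sites.

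Sites in all 9 lists were ranked by their lowest score, and Zbtb47, of the BTB subfamily, came first. It had scores of 308, 358 and 189 in SYD, 801, 290 and 653 in Model and 1054, 465 and 758 in Control libraries. Its 3 SYD scores lay below all Control scores and overlapped the Model range. Zbtb7a, a BTB repressor known for silencing fetal globin in human red cells, had the highest member score in the series at chr7:11436165-11437420. It scored 91.7, 179 and 141 in SYD, 917, 277 and 728 in Model and 1869, 811 and 507 in Control libraries, with no overlap of SYD with either group. A score rises with read depth as well as with enrichment, and depth was not available to separate these.

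Zfp91, known as an E3 ubiquitin ligase of NF-kappaB signalling, scored 133, 127 and 227 in SYD, 527, 196 and 293 in Model and 645, 323 and 175 in Control libraries. Zfp704 at chr2:94377790-94378070 scored 133, 149 and 147 in SYD, 581, 308 and 276 in Model and 498, 248 and 404 in Control libraries. Of these 2 genes, Zfp704 had SYD scores below all others, and Zfp91 overlapped. Zfp428 scored 82.0, 91.8 and 95.7 in SYD, 135, 90.2 and 188 in Model and 116, 171 and 94.4 in Control libraries, so that its groups overlapped. The remaining sites in all 9 lists had lowest scores between 21.6 (Zfp697) and 79.0 (Zfp703).

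Fold enrichment ran the other way from the score. The Zfp704 site had folds of 85.0, 55.9 and 93.9 in SYD, 53.7, 28.5 and 36.7 in Model and 29.5, 23.7 and 34.7 in Control libraries. This was the highest median fold of a member site in all 9 lists (36.7), followed by Zfp91 (30.2), Zbtb10 (29.5), Zbtb7a (24.3) and Zfp428 (23.8). The shift was that of the whole lists: the median fold of zinc finger peaks was 30.6, 21.3 and 31.2 in SYD, 8.55 to 10.4 in Model and 7.03 to 9.71 in Control libraries, and that of other peaks was 21.4 to 30.9 in SYD, 9.73 to 11.3 in Model and 7.29 to 10.4 in Control libraries. As a ratio to other peaks of the same list, the members' median was 0.991, 0.992 and 1.03 in SYD, 0.879 to 0.919 in Model and 0.921 to 0.964 in Control. SYD did not overlap the others in that ratio, but overlapped both when only scores of at least 50 were used (0.916 to 1.24 in SYD, 0.869 to 1.07 over Model and Control). At equal list length SYD (0.974 to 1.01) overlapped Control (0.872 to 0.996) but not Model (0.868 to 0.935). With 1 peak per gene SYD (0.935 to 0.965) overlapped neither Model (0.846 to 0.857) nor Control (0.886 to 0.931). The ratio was not tested.

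To compare sites at matched list level, log2 fold was centred on the median of the 917 sites present in every list. That median was 38.9, 26.7 and 40.5 in SYD, 17.8, 12.7 and 17.3 in Model and 12.5, 13.0 and 16.2 in Control libraries. With limma, 0 of 17 member sites changed at an adjusted p under 0.05 in any of the 3 comparisons, and of all 917 sites 0 (0%) were called in either direction in each. The fit took 17 of the 228 member sites, and a site missing from any list could not be called by it. At an unadjusted p under 0.05 there were 1 member and 22 sites in all for Model against Control, 1 and 67 for SYD against Model, and 2 and 78 for SYD against Control. The median centred difference of the members was 0.01 for Model minus Control, 0.15 for SYD minus Model and 0.09 for SYD minus Control, beside 0.00, 0.01 and 0.02 over all 917 sites. Simulated data took each site's mean over the 9 libraries and its spread within the 3 groups, with 200 of 917 sites shifted in Model. The fit of Model against Control found 71.5% of shifts of 1 and 97.5% of shifts of 2 on the log2 scale. So many shifted sites make the adjusted threshold easier to pass, so these shares are not the power for a change at few sites.

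The member with the lowest p for Model against Control was Zbtb10, a repressor known for binding GC-rich promoters in human cells. Its folds at chr2:94729886-94730308 were 62.9, 37.0 and 49.1 in SYD, 16.6, 15.7 and 29.5 in Model and 22.4, 27.5 and 38.4 in Control libraries. After centring it was -0.73 ± 0.26 (SE) in Model minus Control on the log2 scale (limma, adjusted p = 0.997), and the 3 Model values lay below the 3 Control values. For SYD minus Control it was -0.58 ± 0.26 (limma, adjusted p = 0.564).

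Zfpm1 (FOG1), the cofactor through which GATA1 acts in blood cells, carried 3 sites in all 9 lists. The longest of them, at chr19:55148859-55150686, had folds of 61.0, 30.8 and 81.9 in SYD, 23.1, 13.5 and 13.2 in Model and 14.6, 16.6 and 19.0 in Control libraries. Centred, SYD minus Model was 0.60 ± 0.27 (limma, adjusted p = 0.662), with a 95% interval of 0.03 to 1.17 before adjustment, and the centred groups overlapped. The other Zfpm1 sites gave -0.17 ± 0.23 (123 bp) and 0.04 ± 0.24 (150 bp) for the same comparison (limma, adjusted p = 0.895 and 0.959). Zfpm2 (FOG2), the GATA4 cofactor of the developing heart, was listed in 1 library of each group, through 2 sites. The site at chr7:79638057-79638168 scored 46.7 in Model 1 and was in no other list. That at chr7:79738228-79738346 scored 47.0 in SYD 1 and 21.4 in Control 3, and was in no Model list. Both GATA cofactors thus had a peak, Zfpm1 in every list.

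Zbtb7a gave the lowest p for SYD against Control. Its folds were 30.2, 24.6 and 35.2 in SYD, 24.3, 11.1 and 24.4 in Model and 23.1, 18.5 and 16.6 in Control libraries. The deposited folds were higher in all SYD than in all Control libraries, whereas the centred value was -0.71 ± 0.27 for SYD minus Control (limma, adjusted p = 0.544) and -0.48 ± 0.27 for SYD minus Model (limma, adjusted p = 0.764). Its direction thus depended on the centring, and without it the differences were 0.63 and 0.66. Of the 17 sites, 11 had a positive centred difference and 6 a negative one for SYD minus Control.

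**Figure D3:**
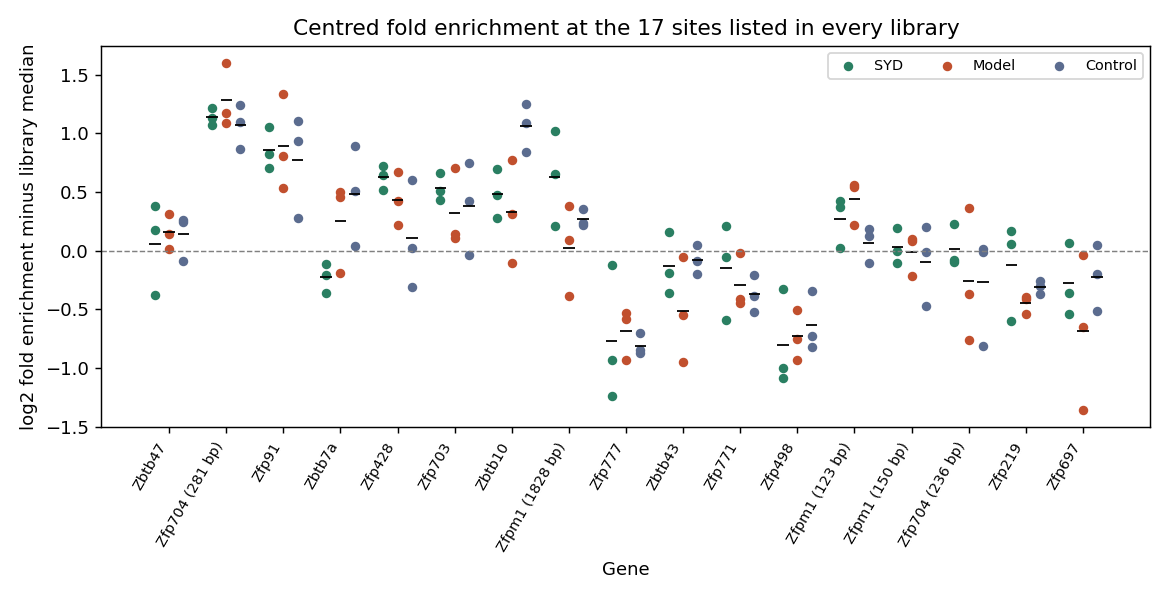
Log2 fold enrichment minus the library median at the 17 member sites in all 9 lists, ordered by lowest score; points are libraries, coloured by group, and black dashes are means of 3. Zbtb10 has its 3 Control points above the Model points, and most sites overlap among groups.

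Presence gave a second reading of sites that were weaker. A site separated 2 groups when all 3 libraries of one and none of the other held it. With 3 libraries a group, Fisher's exact test (two-sided) gives such a site p = 0.1 at best, so no single site can pass a threshold of 0.05. Between Model and Control, Zfp169 alone among members was held by Model only, where 0.166% of all sites were, and Zfp105 alone by Control only, where 0.765% of all sites were. Zfp169 at chr17:16468708-16470842 scored 31.0, 35.2 and 37.3 in Model libraries and was in no SYD or Control list. Zfp105 at chr8:132002164-132002452 scored 48.1, 26.5 and 24.0 in Control libraries and was in no SYD or Model list. Of these 6 scores, 5 lay below the median score of all member peaks, 43.8.

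Between SYD and Model, no member site was in all SYD and no Model lists (0 of 228, beside 0.0998% of all sites). In the other direction 3 member sites, or 1.32%, were in all Model and no SYD lists, beside 1.65% of all sites. They were on Zfp169, Zfp821 and Zbtb40. Zfp821 at chr19:41941077-41941930 scored 48.7, 33.9 and 28.6 in Model libraries, and 158 and 57.5 in the Control libraries 1 and 2, without a peak in Control 3. Zbtb40 at chr5:155358509-155358967 scored 20.2, 38.2 and 31.7 in Model libraries and 44.2 and 55.4 in Control libraries 1 and 3. When lists were limited to equal length, none of these separated. A Zbtb46 site was then in all SYD and no Model lists (1 of 147 member sites, 0.680%, beside 0.504% of all sites). The whole lists of Model 1 and Model 3 held that site, with scores of 44.4 and 26.6, so its absence from Model came with the shortened lists.

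Between SYD and Control, 0 of 228 member sites were in all SYD and no Control lists, beside 0.0998% of all sites. In all Control and no SYD lists were 5 member sites (2.19%), beside 3.07% of all sites. These were on Zfp105, Zfp212, Zfp251, Zfp451 and Zfp830. Zfp212 and Zfp451 each had another site in 1 SYD library, with scores of 21.0 (SYD 1) and 26.6 (SYD 3). Counted by gene, 4 members (2.55%) were in all Control and no SYD lists, beside 3.59% of all genes. They were Zfp105, Zfp251, Zfp668 and Zfp830. This comparison has its SYD libraries in common with that against Model, so their counts are not independent. Zfp830, known to be needed in the early mouse embryo, scored 93.6, 69.0 and 30.6 in Control and 165 and 62.9 in Model libraries 1 and 3 at chr10:70118250-70119709. Zfp451, the SUMO ligase that acts on trapped topoisomerase in human cells, scored 45.8, 29.5 and 24.4 in Control libraries and 35.6 in Model 3 at chr9:38396449-38396566. Zfp212 (chr4:77602370-77603226) and Zfp251 (chr7:117910426-117912929) had scores of 22.6 to 106 in the 5 Control and Model lists that held each. At equal list length 0 of 147 member sites separated SYD from Control in either direction.

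The members' shares in the SYD comparisons are near those of all sites and were not tested. The order of the shares held by Model but not by SYD turned with the setting: among peaks with scores of at least 50, 2.61% of member sites and 2.38% of all sites separated, and with 2 Model libraries against no SYD library 8.77% and 8.27%. For sites held by Control but not by SYD, the shares were 2.61% and 4.62% with scores of at least 50. With 2 Control libraries against no SYD library they were 12.7% and 11.9%. The member sites that separated at scores of at least 50 were none of those named above. Each had peaks with scores under 50 in the group counted as without it. In Model against Control the shares rested on 1 member site each way. With each library left out in turn, which asks for 2 libraries in place of 3 in that group or drops a list that could hold the site, totals over both directions were 3 to 6 for Model against Control (2 with all libraries), 6 to 12 for SYD against Model (3) and 8 to 17 for SYD against Control (5). The highest of these totals for SYD came without Model replicate 2 (12 sites, beside 5.86% of all sites in all Model and no SYD lists) and without Control replicate 2 (17 sites, beside 7.46% in all Control and no SYD lists). These were the shortest lists of their groups for zinc finger genes.

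**Figure D4:**
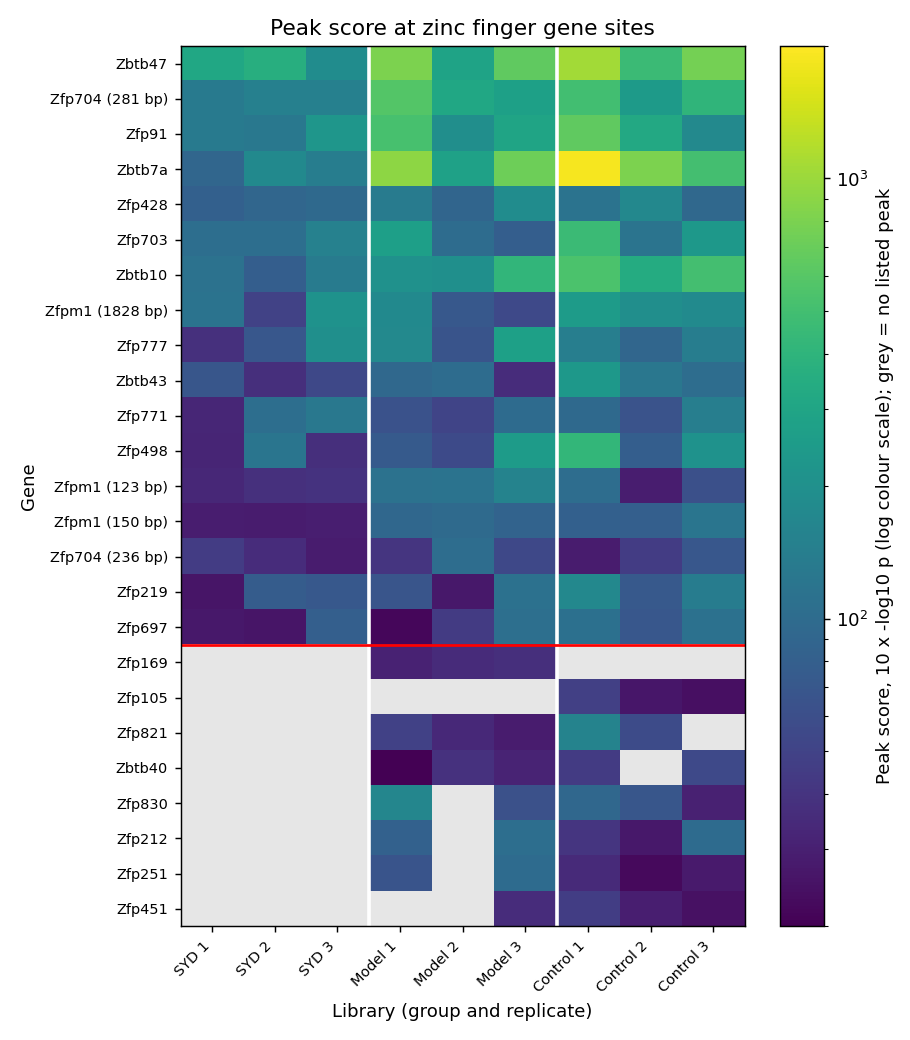
Peak score, on a logarithmic colour scale, at 17 member sites in all 9 lists (above the line) and 8 sites that separated 2 groups (below it), by library; grey marks no listed peak. The 8 lower sites are grey in all 3 SYD libraries.

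Sites present in Model were followed into SYD. Of 92 member sites in 2 or 3 Model lists, 21 (22.8%) were in all 3 SYD lists, 51 (55.4%) in 1 or 2 and 20 (21.7%) in none. For 3348 sites of other genes these shares were 35.4%, 42.9% and 21.7%. A smaller share of member sites than of others was thus in every SYD list, and neither difference was tested. Member sites kept in all SYD lists had a median Model score of 102 and those in none 35.4, beside 144 and 39.1 for other genes, so that sites in no SYD list had the lower scores in both sets, and member sites scored lower than others in each. The part of the score in these shares was not tested. At equal list length 38.5% of member sites and 48.3% of others were in all SYD lists, and with scores of at least 50 the shares were 28.1% and 30.4%. In no SYD list were 13.5% of member sites and 11.3% of others at equal list length, and 37.5% and 30.0% with scores of at least 50. Without SYD replicate 2, 38.0% of member sites and 28.9% of others were in none of the remaining SYD lists. Leaving out a Model replicate asked for both remaining Model lists, a stricter start. It left 47 member sites without Model replicate 1 and 50 without Model replicate 3. Without Model replicate 1, 36.2% of member sites and 49.6% of others were in all SYD lists. These shares were 36.0% and 48.8% without Model replicate 3. In no SYD list were 14.9% and 11.6% without Model replicate 1. Without Model replicate 3, 7 of 50 member sites and 12.5% of others were in none.

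**Figure D5:**
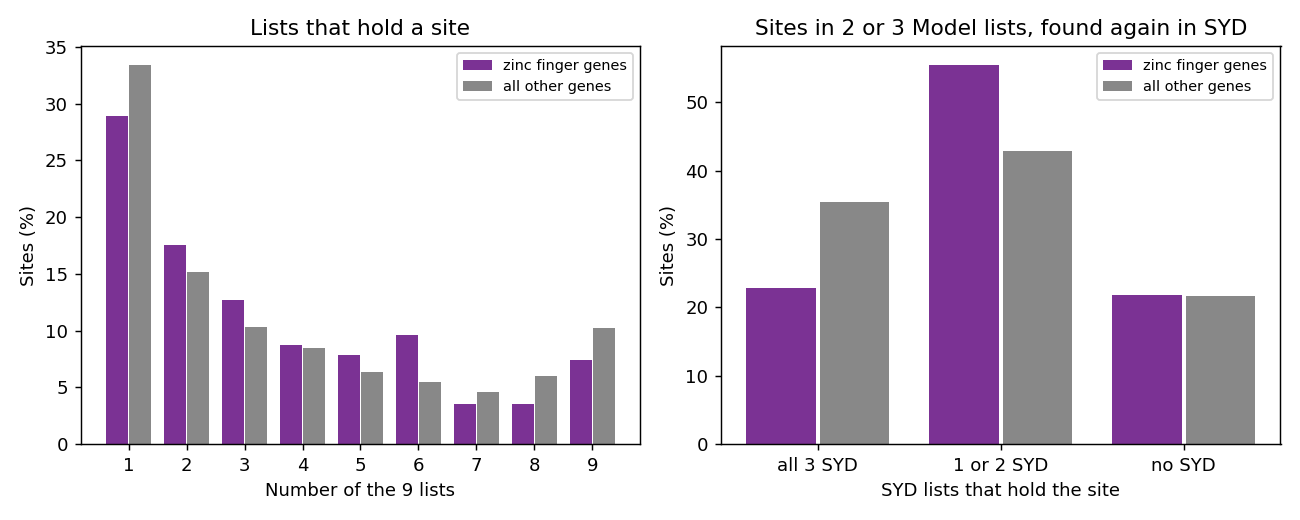
Percent of sites by the number of the 9 lists that hold them (left), and percent of sites in 2 or 3 Model lists found in all 3, in 1 or 2, or in no SYD list (right), for zinc finger genes and all other genes. In all 9 lists were 7.46% of member sites and 10.2% of others.

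By gene, 44 members were in at least 2 SYD, 77 in at least 2 Model and 85 in at least 2 Control libraries. The 40 genes shared by SYD and Model were 90.9% of the SYD set and 51.9% of the Model set, and the 63 shared by Model and Control were 81.8% of the Model set and 74.1% of the Control set. Only the share of the Model set found in SYD has a counterpart for other genes here, so the remaining shares describe members alone. For other genes 64.7% of those in at least 2 Model libraries were in at least 2 SYD libraries. In no SYD library were 20.8% of members and 16.0% of other genes from the same Model sets. Members in at least 2 Model and 2 Control libraries and no SYD library were Zbtb40, Zfp251, Zfp330, Zfp398, Zfp507, Zfp574, Zfp821, Zfp830 and Zscan2, and none of them was in all 3 of both groups. These 9 were 5.73% of members, beside 4.99% of other genes with that pattern. In SYD alone were 2 members (1.27%, beside 3.31% of other genes), Zfp213 and Zfp36, each in 1 library. Zfp36 (tristetraprolin), which binds AU-rich messages and speeds their decay, scored 36.8 in SYD 3.

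RNA-binding and other members outside the DNA-reading C2H2 class were read from a list of 18 genes. A peak was listed for 11 of them, in a median of 3 lists against 4 for all members, with 3, 1 and 4 in the SYD, 7, 3 and 8 in the Model and 5, 4 and 4 in the Control libraries. Zfp36l1, a decay factor related to tristetraprolin, was listed in 1 Model and 2 Control libraries with scores of 27.1 to 28.8. Zfp598, which senses collided ribosomes, had 1 peak in Model 3 (score 23.6), and Zfp346, a binder of double-stranded RNA, had peaks in 1 Model and 1 Control library. Znfx1, a helicase of antiviral defence, was in 2 SYD, 2 Model and 1 Control libraries through 3 sites. Zfp593 was in 2 Model libraries, with scores of 98.0 and 34.4, and in no SYD or Control library, and Zfp706 was in 2 SYD, 2 Model and 0 Control libraries. Zfp622 was the only one of the 11 in all 9 lists.

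Most members had 1 site: 103 had 1, 40 had 2 and 14 had 3 or 4. The most, 4 each, were on Zfp106, Zfp282 and Zfp64. Zfp106, an RNA-binding protein whose loss harms motor neurons in mice, was in 2 Model and 1 Control libraries and no SYD library, with scores of 22.9 to 53.6. Zfp64 was in 2 SYD, 3 Model and 3 Control libraries, with its highest score, 143, in Control 1. Zfp282, a KRAB protein, had scores of 20.7 to 36.4 and was in 1 SYD, 3 Model and 3 Control libraries.

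Genes that work with these factors were read from lists in the same way. Of 118 other C2H2 factors 49 had a peak, in 16, 20 and 17 genes per SYD, 30, 20 and 24 per Model and 40, 22 and 29 per Control library. Snai2, a repressor of epithelial genes, and Klf7 had a site in all Model and no SYD lists, and Sall2 and Klf7 in all Control and no SYD lists, which in each direction was 2 of the 83 sites of this list (2.41%), beside the 1.65% and 3.07% of all sites given above. Of 27 partners of KAP1 silencing 10 had a peak. Dnmt1, the maintenance DNA methyltransferase, had a site in all Model and no SYD lists and another in all Control and no SYD lists, as the remodeller Chd3 had in the second pattern. These were 1 and 2 of 30 sites (3.33% and 6.67%), beside the same 1.65% and 3.07% of all sites, and were not tested. Dnmt1 and Chd3 each had a peak in all 9 lists, so every SYD library held other sites of both genes. Of 21 corepressors and ubiquitin ligase partners of BTB proteins 13 had a peak. No gene of these lists had a site in all SYD and no Model lists, and none separated Model from Control. The lowest scores of the separating sites named here were 20.2 to 36.1.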

How the data were processed

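Reads of 18 libraries (IP and input of 9 samples) were trimmed by the authors with cutadapt 1.9.3, aligned to rn6 with HISAT2 2.0.4 and used to call peaks in each replicate with MACS 1.4.2 (versions from the submitters' notes and the methods), after which peaks on mRNA were kept. The deposited score is 10 times the negative log10 p, and the deposited fold enrichment is a ratio of IP to input scaled within the replicate. Neither is an m6A stoichiometry.

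Sites were merged with pandas 2.3.3, starts were written 1-based, and log2 folds, centred on each library's median over 917 shared sites, were fitted with limma 3.58.1 (R 4.3.3) over 3 groups with Benjamini-Hochberg adjustment over all sites. The fit was tested on simulated data. Counts over the gene list have no test. Named genes were those with a separating site, the 12 members with the highest lowest score at a site in all 9 lists, the 5 sites with the smallest p per comparison, the 5 genes with the most sites (3 had 4 sites, and the ties below them were not named) or the highest fold, the 2 GATA cofactors and the members outside the C2H2 class. Zfp646, Zbtb39, Zfp521, Zfp526, Zfp629, Zfp213, Zbtb46 and the genes in a named pattern were added after their values were seen. Members and lists were chosen with earlier results of these data known. Alternatives were a score minimum of 50, lists of 2508 peaks, 1 peak per gene, other overlaps and genes in place of sites. Further ones were no centring, scores in place of folds, a replicate block and leaving out each library. The alternatives for the fate of sites, for peak length and for the fold ratio of members to other peaks were chosen after seeing the data. Deviations from the group means correlated weakly between same-numbered libraries (mean r 0.0465, from -0.0470 to 0.259 over 9 pairs). The highest was that of Model 1 with Control 1. Differently numbered libraries gave a mean r of -0.0231, from -0.192 to 0.112 over 18 pairs. The numbers were not treated as pairs in the main fit. Differential methylation calls and input counts were not used here. Of the partner lists, 1 result is not reported here.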

Additional observations from a re-analysis of the deposited data

How the results depend on the processing

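At scores of at least 50 the zinc finger genes per library averaged 19.3 in SYD, 36.0 in Model and 48.0 in Control, their peaks 20.7 in SYD, 42.3 in Model and 56.3 in Control, their share of genes 2.17% in SYD, 2.35% in Model and 2.65% in Control, and their median fold 39.2 in SYD, 13.0 in Model and 10.3 in Control. At equal list length the genes averaged 47.3 in SYD, 49.3 in Model and 47.0 in Control, the peaks 58.0 in Model and 54.0 in Control, the share 2.74% in Model and 2.62% in Control and the median fold 11.3 in Model and 10.3 in Control. Without the members outside the C2H2 class the SYD peaks averaged 56.3.

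Separating member sites, counted over both directions, numbered 2 for Model against Control, 3 for SYD against Model and 5 for SYD against Control. At scores of at least 50 they were 1, 3 and 3. These were 0.870% of member sites and 0.794% of all sites in Control and not Model, 2.61% and 2.38% in Model and not SYD, and 2.61% and 4.62% in Control and not SYD. They lay on Zfp362, Zfp618, Zfp787 and Zfpm1, and none was a separating site of the whole lists. In the whole lists each had peaks with scores under 50 in the group counted as without it. At equal list length separating member sites numbered 0, 1 and 0. The 1 was the Zbtb46 site in SYD and not Model (0.680% of member sites, 0.504% of all sites), which 2 whole Model lists held. Of all sites 0.420% were then in Control and not Model, and 0.723% in Control and not SYD. With 2 libraries against none they were 16, 22 and 31. In this last setting 2.63% of member sites and 2.14% of all sites were in Model and not Control, 4.39% and 4.87% in Control and not Model, 8.77% and 8.27% in Model and not SYD, and 12.7% and 11.9% in Control and not SYD. Leaving out each library gave 3 to 6, 6 to 12 and 8 to 17. The highest for SYD were 5.26% of member sites beside 5.86% of all sites without Model replicate 2, and 7.46% beside 7.46% without Control replicate 2. Without centring, limma called 16 of 17 member sites and 826 of 917 sites for SYD against Model and 16 and 880 for SYD against Control, as the whole lists shifted. Zbtb7a then turned to 0.63 for SYD minus Control and 0.66 for SYD minus Model, and Zbtb10 to 0.76 for SYD minus Control. With a replicate block, 0 member sites were called in each comparison, as without it, and the lowest adjusted p of a member was 0.997, 0.594 and 0.492 for Model against Control, SYD against Model and SYD against Control. Leaving out a library also called 0.

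Depth is unknown, so a missing peak cannot be read as absent m6A. The separating member sites had lowest scores of 20.2 to 31.0 and scores of up to 165 (Zfp830, Model 1), and the part of score in their absence from a list was not tested.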
